A study of Mus musculus with 1 sample.

Results

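The BCL2 family genes described here were the 10 cell death genes Bcl2, Bcl2l1, Mcl1, Bax, Bak1, Bid, Bad, Bbc3, Pmaip1 and Bcl2l11. They were found by gene symbol among the 27998 genes listed for a single-cell RNA-seq library of mouse testis, and all 10 had transcripts. This look-up made no use of their levels, but the genes had been chosen with earlier results of these data known. The library, made with 10x Chromium v2 chemistry, held Wild-type C57BL/6 cells of postnatal day 8. Equal cell numbers from 3 mice had been pooled before loading. Spermatogonia had been enriched on THY1 beads and mixed with some unselected testis cells, so the share of each cell type was set by the enrichment and not by the tissue. Because the mice were pooled into 1 library there were no replicates, no test between groups was possible, and every interval below is an exact 95% interval that covers counting error only.

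BCL2 family proteins decide whether the outer mitochondrial membrane is opened during apoptosis. Anti-death members hold back the effectors BAX and BAK, which form the pores, and BH3-only members are stress sensors that block the anti-death members or activate the effectors. In the testis, apoptosis is a normal feature of the first wave of spermatogenesis, and germ cell number is known to depend on the balance of BCL2 family proteins.

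Of 970 barcodes, 919 were kept as cells, 323 of them germ cells and 596 somatic cells. The germ cells comprised 111 SSC-like cells (spermatogonial stem cells, led by Lhx1 and Bcl6b), 76 progenitor-like cells (led by Neurog3) and 136 differentiating-like cells (Kit-led or Prss50-led). The somatic cells comprised 255 Sertoli-like, 186 stromal-like, 94 peritubular myoid-like and 35 macrophage-like cells and a cluster of 26 cells led by Xcl1. That cluster scored highest for T cell markers but received no cell type name. Of its 26 cells, 13 had no UMI of any of the 5 T cell markers measured, and 10 cells carried at least 3 of 5 pericyte genes such as Rgs5 and Higd1b. Of the 186 stromal-like cells, 10 had UMIs of at least 3 of 6 Leydig cell markers and held 712 of the class's 735 Leydig marker UMIs. Leaving those cells out changed none of the counts of germ against somatic cells below. Depth differed between classes, with a median of 18220 UMIs (unique molecular identifiers, each a counted transcript molecule) per germ cell and 8193.5 per somatic cell. Mitochondrial transcripts held 6.82% of germ cell UMIs and 4.57% of somatic cell UMIs, and the part of depth and mitochondrial share in the differences below was not tested. Levels are summed UMIs per 1000000 UMIs of a class (CPM). The UMIs were counted from 3′ ends and were not divided by gene length. In such summed levels, fewer expressing cells and less RNA per cell cannot be told apart. Some stage markers did not follow the names. Nanos2, an SSC marker, had 14.7 CPM in its own stage against 17.3 CPM for progenitor-like cells. Sox3 and Rarg, progenitor markers, were no higher in progenitor-like (37.4 and 15.8 CPM) than in differentiating-like cells (41.8 and 16.5 CPM). Summed, the 6 SSC markers had 201 CPM in their own stage against 73.3 CPM for progenitor-like cells. The 7 progenitor markers had 732 CPM in theirs, against 345 CPM for differentiating-like cells.

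**Figure D1:**
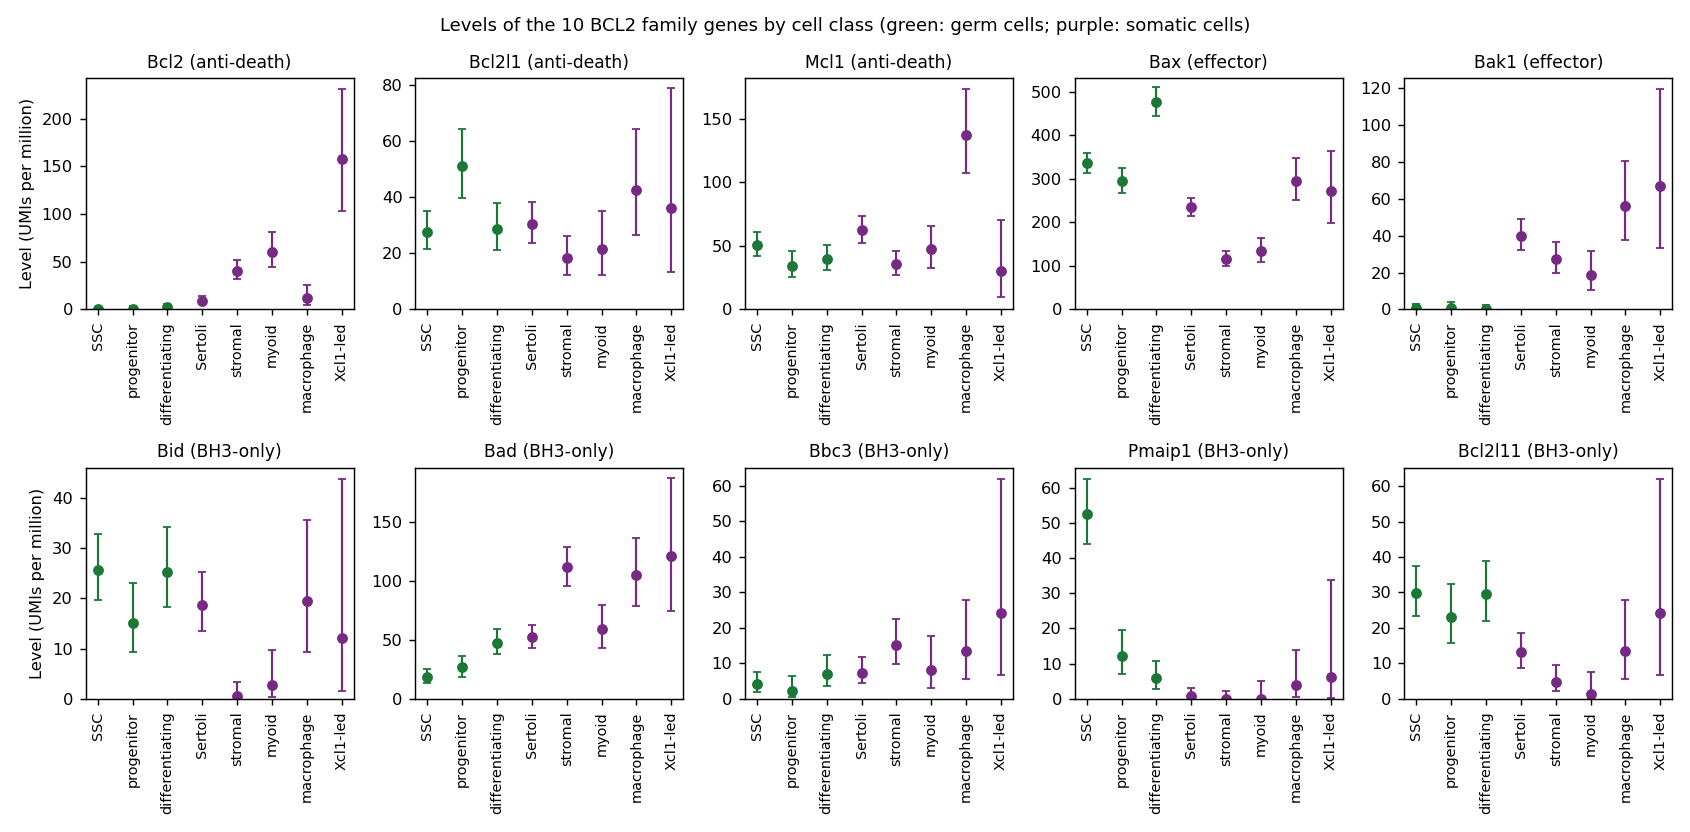
Level of each BCL2 family gene (vertical axis, CPM, a separate linear scale from 0 for each gene) in the 8 cell classes, germ cells in green and somatic cells in purple. Points are levels from summed UMIs and bars exact 95% Poisson intervals for counting error, and Bak1 and Bcl2 lie near 0 in all 3 germ cell stages while Pmaip1 is highest in SSC-like cells at 52.6 CPM.

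The promoters of the effectors Bax and Bak1 are shown because these genes, which encode the pore-forming proteins, had opposite patterns in the germ cells. Each run covers 250 bases before to 50 bases after the RefSeq start on GRCm38.p6, on the gene's own minus strand, at chr7:45466849-45467148 for Bax and chr17:27028578-27028877 for Bak1. Capitals mark CACGTG, a palindromic E-box that reads the same on both strands and was chosen after the sequences had been read.
Bax: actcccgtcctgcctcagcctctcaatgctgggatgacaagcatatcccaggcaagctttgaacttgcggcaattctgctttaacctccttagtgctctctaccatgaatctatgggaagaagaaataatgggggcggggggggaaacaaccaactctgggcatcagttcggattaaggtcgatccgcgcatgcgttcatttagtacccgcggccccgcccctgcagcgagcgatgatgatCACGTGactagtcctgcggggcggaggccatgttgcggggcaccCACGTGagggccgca
Bak1: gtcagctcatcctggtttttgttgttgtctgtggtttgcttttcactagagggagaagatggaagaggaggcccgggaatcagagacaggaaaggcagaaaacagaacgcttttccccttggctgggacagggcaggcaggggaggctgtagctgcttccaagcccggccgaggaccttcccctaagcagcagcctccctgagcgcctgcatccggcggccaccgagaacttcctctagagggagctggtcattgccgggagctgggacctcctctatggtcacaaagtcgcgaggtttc
The Bax window held 2 copies and the Bak1 window 0. CACGTG occurred in 7.15% of 32851 promoter windows of this length, and 0.594% held at least 2 copies. The Bak1 window lies wholly inside the GENCODE gene (bases 27019810 to 27029009), whereas the Bax window reaches past its gene (bases 45461697 to 45466898). The windows are thus not at like positions. A match is a description of letters and not a site of binding, and a link between the motif and the levels was not tested.

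The anti-death genes differed in where they were found. Bcl2, the founding anti-death gene on chromosome 1 (GRCm38, bases 106538178 to 106714274), had 6 UMIs in all germ cells and 165 in somatic cells. Its level was 1.08 CPM (0.397 to 2.36) in germ cells and 30.8 CPM (26.3 to 35.9) in somatic cells, a log2 ratio of -4.83 (-6.30 to -3.68). The ratio was -2.38 with 20 principal components, where 13 cells of the Xcl1-led cluster were placed with the germ cells, and -2.40 with germ cells taken by a UMI of Ddx4 or Dazl, which 88 of the 596 somatic cells had. With cells under 5% mitochondrial UMIs it was -2.79. That setting kept 67 germ cells and formed no SSC-like or progenitor-like class. Against Sertoli-like cells alone the ratio was -3.08, so germ cells were lower throughout but by a size that varied. Of the germ cell UMIs, 4 were in differentiating-like cells, and SSC-like and progenitor-like cells had 1 each.

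Among somatic classes, Bcl2 reached 60.8 CPM in peritubular myoid-like cells and 40.8 CPM in stromal-like cells, against 11.6 CPM for the macrophage-like and 9.15 CPM for the Sertoli-like cells. Thus the cells of the tubule wall and the stroma were high, and macrophage-like and Sertoli-like cells were low and did not differ beyond counting error. The highest Bcl2 level, 158 CPM (103 to 231), was in the Xcl1-led cluster. There, 23 of the 26 Bcl2 UMIs fell in the 13 cells with a T cell marker. The stromal-like to Sertoli-like difference was larger than counting error, at a log2 ratio of -2.16 (-2.94 to -1.43) for Sertoli-like over stromal-like cells.

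Bcl2l1, which encodes BCL-XL, was measured in every class at 18.3 to 51.0 CPM. SSC-like cells had 27.7 CPM of it and differentiating-like cells 28.8 CPM. Progenitor-like cells, at 51.0 CPM, had the highest value of the 8 classes, and SSC-like cells lay below them by a log2 ratio of -0.88 (-1.38 to -0.38). Across the whole library its level hardly separated the lineages, at 33.9 CPM in germ cells and 26.9 CPM in somatic cells, a log2 ratio of 0.34 (0.02 to 0.66).

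Mcl1 encodes a short-lived anti-death protein. SSC-like cells had 51.0 CPM, progenitor-like cells 34.5 CPM and differentiating-like cells 40.0 CPM, which summed to 43.5 CPM in germ cells against 58.4 CPM in somatic cells. Macrophage-like cells stood above the other classes at 138 CPM (107 to 174), and the next class, Sertoli-like cells at 62.3 CPM, was lower by more than counting error with a log2 ratio of 1.14 (0.71 to 1.56). Hence Bcl2l1 and Mcl1 were the anti-death transcripts present in germ cells, where Bcl2 was close to the counting limit.

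The effectors Bax and Bak1 went opposite ways. Bax, on chromosome 7 (bases 45461697 to 45466898), was the most abundant of the 10 genes in every class. SSC-like cells had 337 CPM (314 to 361), progenitor-like cells 296 CPM (268 to 326) and differentiating-like cells 477 CPM (444 to 511). In somatic classes it ranged from 117 CPM in stromal-like to 296 CPM in macrophage-like cells. Differentiating-like cells had the highest level, above SSC-like cells by more than counting error with a log2 ratio of 0.50 (0.36 to 0.64). Within them, the Kit-led cells reached 514 CPM (476 to 555) and the Prss50-led cells 357 CPM (301 to 420).

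Bak1, on chromosome 17 (bases 27019810 to 27029009), had 3 UMIs among 5542874 germ cell UMIs and 191 among 5358932 somatic cell UMIs. Its level was 0.541 CPM (0.112 to 1.58) in germ cells and 35.6 CPM (30.8 to 41.1) in somatic cells, a log2 ratio of -6.04 (-8.33 to -4.47). It was -2.23 with germ cells taken by a UMI of Ddx4 or Dazl, -4.15 with 20 principal components and -4.03 under 5% mitochondrial UMIs (67 germ cells). In differentiating-like cells it had 0 UMIs in 136 cells, with exact intervals that reach 2.17 CPM and a share of 2.68% of cells with a UMI. All somatic classes had it, from 18.9 CPM in peritubular myoid-like to 56.2 CPM in macrophage-like cells and 66.6 CPM in the Xcl1-led cluster. So Bax transcripts were found in germ and somatic cells alike, and Bak1 transcripts mostly in somatic cells. Bak1 overlaps Ggnbp1 on the other strand in GENCODE. On the same strand, Bcl2 overlaps Mir3473f and Gm37053, Bax overlaps Gm45808 and Bid overlaps Gm44260. These same-strand genes were not among the genes listed for the library. Bid also overlaps Bcl2l13 and Gm17812, and Bcl2 overlaps D630008O14Rik, on the other strand.

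The share of cells with at least 1 UMI followed the same order. For Bak1 it was 0.929% of germ cells and 26.0% of somatic cells, although germ cells were the deeper of the groups. Cells with at least 5000 UMIs were then thinned to 5000 UMIs, and cells below that depth were left out. The shares became 0.719% of 278 germ cells and 15.9% of 548 somatic cells. Bax was found in 94.4% of germ cells and 71.3% of somatic cells, and in 83.5% and 55.5% after thinning. Free RNA gives UMIs in cells that do not make a transcript. In germ cells, which should lack them, the 6 Sertoli cell markers summed to 47.1 CPM, against 4680 CPM in Sertoli-like cells, and each was found in 0.619% to 32.2% of germ cells. In somatic cells each of the 6 germ cell markers was found in 1.85% to 12.1% of cells. The shares for Bak1 and Bcl2 in germ cells and for Pmaip1 in somatic cells lay within or below these ranges. Other members did too, such as Bid, found in 30.7% of germ cells and 8.72% of somatic cells. Some markers were far more abundant in their own cells than these genes, such as Rhox8 at 2304 CPM in Sertoli-like cells. The ranges of shares therefore cannot tell free RNA from expression for these genes. By level, Bid was at 22.9 CPM in germ cells and 10.8 CPM in somatic cells, and the part of free RNA in it was not tested. The few Bak1 and Bcl2 UMIs of germ cells and the few Pmaip1 UMIs of somatic cells are not read as expression.

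Of the 5 BH3-only genes, 3 were at least 2-fold higher and 2 at least 2-fold lower in germ than in somatic cells. Of all genes, 24.9% were higher and 27.8% lower. Against Sertoli-like cells alone, Bid (log2 ratio 0.29), Bad (-0.82) and Bbc3 (-0.72) fell short of 2-fold. Pmaip1, which encodes NOXA, a p53-responsive neutraliser of MCL1, lies on chromosome 18 (bases 66458533 to 66465565). It had 156 UMIs in germ cells and 5 in somatic cells, 28.1 CPM (23.9 to 32.9) against 0.933 CPM (0.303 to 2.18), a log2 ratio of 4.91 (3.66 to 6.56). Stromal-like and peritubular myoid-like cells had 0 UMIs, with exact intervals that reach 2.25 CPM and 4.98 CPM.

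Within the germ cells, Pmaip1 was highest in the stem cell stage, with 52.6 CPM (43.9 to 62.5) for SSC-like cells, 12.2 CPM (7.12 to 19.6) for progenitor-like cells and 5.89 CPM (2.82 to 10.8) for differentiating-like cells. SSC-like cells exceeded progenitor-like cells by a log2 ratio of 2.11 (1.37 to 2.93) and differentiating-like cells by 3.16 (2.23 to 4.25), and in unthinned cells the later stages did not differ beyond counting error, at 1.05 (-0.16 to 2.34). At least 1 Pmaip1 UMI was present in 49.5% of the SSC-like cells, in 19.7% of the progenitor-like cells and in 7.35% of the differentiating-like cells. Per cell, these stages had medians of 22353, 19490.5 and 10935.5 UMIs. After thinning to 5000 UMIs the shares were 20.9% of 110, 11.6% of 69 and 1.01% of 99 cells, against 0.426% of Sertoli-like cells. Thinning left out cells under 5000 UMIs, which were 1 SSC-like, 7 progenitor-like and 37 of the 136 differentiating-like cells. In thinned cells, from a single random draw, the log2 ratio of SSC-like to progenitor-like cells was 1.13 (-0.04 to 2.48). That gap was not larger than counting error, but it rested on 28 UMIs against 8, where unthinned cells had 129 against 17. In the same thinned cells, progenitor-like cells exceeded differentiating-like cells by 3.52 (0.62 to 8.99), with 8 UMIs against 1. Among the cells deep enough to be thinned, the order of the stages was the same at equal depth, but which of its steps passed counting error was not.

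**Figure D2:**
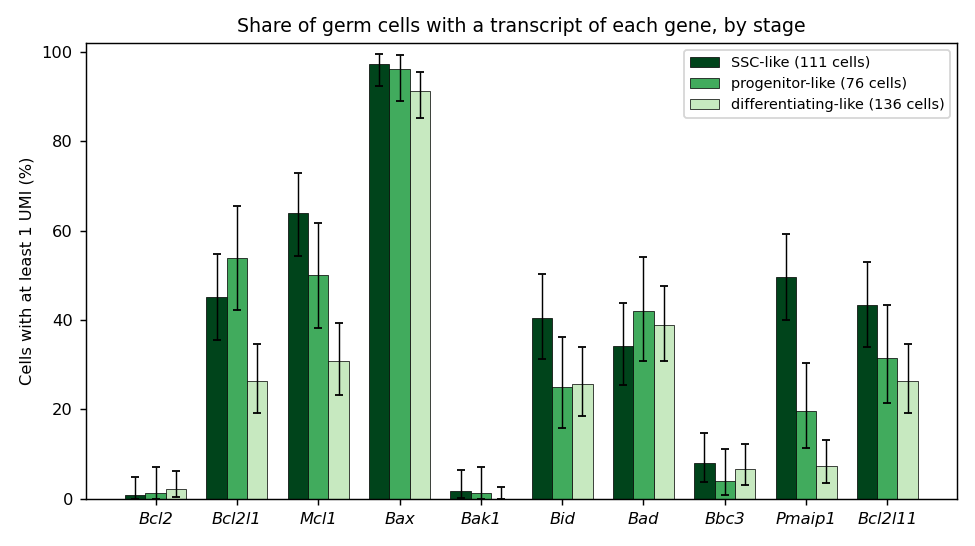
Percent of cells with at least 1 UMI of each BCL2 family gene (vertical axis, from 0) in each of the 3 germ cell stages (SSC-like, progenitor-like, differentiating-like), with exact 95% binomial intervals and no adjustment for depth. Pmaip1 is in 49.5%, 19.7% and 7.35% of cells over the stages, whereas Bax stays above 91% and Bcl2 and Bak1 below 3%.

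Bcl2l11 encodes BIM, an activator that binds all anti-death members. SSC-like cells had 29.8 CPM, progenitor-like cells 23.0 CPM and differentiating-like cells 29.4 CPM, so the germ stages lay within counting error of each other. Of the somatic classes, Sertoli-like cells had 13.1 CPM, macrophage-like cells 13.6 CPM, stromal-like cells 4.87 CPM and peritubular myoid-like cells 1.35 CPM. The Xcl1-led cluster, at 24.2 CPM (6.60 to 62.1) from 4 UMIs, was within the range of the germ stages. The germ cells as a whole were higher, 28.0 CPM against 9.33 CPM, at a log2 ratio of 1.58 (1.12 to 2.07).

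Bid encodes the BH3-only protein that links death receptors to mitochondria once caspase-8 has cleaved it. SSC-like cells had 25.7 CPM, progenitor-like cells 15.1 CPM and differentiating-like cells 25.3 CPM. Sertoli-like cells had 18.7 CPM, whereas stromal-like cells had 1 UMI and peritubular myoid-like cells 2 UMIs. The germ cell level, 22.9 CPM, was above the somatic 10.8 CPM with a log2 ratio of 1.08 (0.62 to 1.56). Against Sertoli-like cells alone the log2 ratio was 0.29, less than 2-fold. Under 5% mitochondrial UMIs, with 67 germ cells kept, the log2 ratio of germ over somatic cells was 2.35.

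Bad, whose protein is kept inactive by survival kinase signalling, ran the other way. SSC-like cells had 18.8 CPM (13.7 to 25.0), progenitor-like cells 26.6 CPM (18.7 to 36.7) and differentiating-like cells 47.7 CPM (37.9 to 59.2). SSC-like cells lay below differentiating-like cells by a log2 ratio of -1.35 (-1.90 to -0.81), and of -0.73 where clusters and levels came from separate parts of the UMIs (count split). The first clustering, of all cells, gave a germ cluster of 62 cells with a median of 4037.5 UMIs per cell. It had 19.1 CPM of Bad (7.02 to 41.7), from 6 UMIs, whereas a germ cluster of 74 cells had 54.1 CPM from 68 UMIs. How these clusters overlap the stages was not tested, nor whether the gap held in all differentiating-like cells. Stromal-like cells had 111 CPM (95.9 to 129), and the somatic level of 78.6 CPM exceeded the germ cell level of 29.6 CPM at a log2 ratio of -1.41 (-1.68 to -1.15) for germ over somatic cells. Bad overlaps Gpr137 on the other strand.

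Bbc3, which encodes the p53 target PUMA, was the scarcest member with 84 UMIs. SSC-like cells had 4.08 CPM, progenitor-like cells 2.16 CPM and differentiating-like cells 7.06 CPM, with intervals that overlapped. Germ cells as a whole were lower than somatic cells, at a log2 ratio of -1.29 (-2.02 to -0.59). No difference between germ stages was detectable for it at this depth.

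Ranked from highest to lowest class, the 10 genes gave 70 pairs of neighbouring classes, and in 12 of them the interval of the ratio excluded equality. Some pairs of Bcl2, Bak1, Bid and Pmaip1 had too few UMIs in both classes for a ratio, so they were not compared. SSC-like cells stood apart as the highest class only for Pmaip1, differentiating-like cells for Bax, macrophage-like cells for Mcl1 and the Xcl1-led cluster for Bcl2. This ranking is of unthinned cells, and in thinned cells the Pmaip1 gap to progenitor-like cells was 1.13 (-0.04 to 2.48). For the other 6 genes the highest class and the next did not differ beyond counting error.

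Read over all 10 genes, 3 were at least 2-fold higher in germ than in somatic cells (Bid, Pmaip1 and Bcl2l11), where 24.9% of the 12168 genes with at least 30 UMIs were. In the same comparison, 4 genes were at least 2-fold lower (Bcl2, Bak1, Bad and Bbc3), where 27.8% of all genes were, so 7 of 10 passed 2-fold either way against 52.7% of all genes. These shares are near the background, and the median log2 ratio was -0.04 for the 10 genes and 0.05 for all genes. Bax, at 1.92-fold, fell short of 2-fold. With Sertoli-like cells alone as the somatic side, Pmaip1 at 5.01 and Bcl2l11 at 1.098 were counted as at least 2-fold higher, where 26.4% of 10916 genes were. On the same side Bak1 was the 1 gene counted as at least 2-fold lower, where 23.6% were, since Bad at -0.82 and Bbc3 at -0.72 fell short and Bcl2, at -3.08, had fewer than 30 UMIs.

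Between germ stages few members passed 2-fold. Of the 7 members with at least 30 UMIs in SSC-like and progenitor-like cells, Pmaip1 was higher in SSC-like cells, where 5.28% of 8527 genes were, and 0 were lower, where 2.23% were (7.51% either way). Against differentiating-like cells, Pmaip1 was higher (7.79% of 8790 genes were) and Bad lower (6.73% were), 2 of 7 members where 14.5% of all genes passed either way. Between progenitor-like and differentiating-like cells, 0 of 6 members passed 2-fold, where 6.88% of all genes were higher and 10.8% lower. The Prss50-led cells differed from the Kit-led cells by 2-fold or more in 1 of 6 members, Bcl2l11. It was lower, at 14.8 CPM (5.42 to 32.2) from 6 UMIs against 34.0 CPM (24.7 to 45.7) from 44 UMIs. These intervals overlapped. Of all genes, 12.2% were lower, 8.80% higher and 21.0% either way.

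The somatic classes also differed among themselves. Bax, Bid and Bcl2l11 were at least 2-fold higher in Sertoli-like than in stromal-like cells, where 25.9% of 9153 genes were, and Bcl2, Bad and Bbc3 were at least 2-fold lower, where 12.0% were. The widest of these ratios was that of Bid, with 43 UMIs against 1 and a log2 ratio of 4.94 (2.39 to 10.28). Between stromal-like and peritubular myoid-like cells, 0 of 7 members passed 2-fold, where 8.57% of all genes were higher and 5.79% lower in stromal-like cells.

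Summed by role, anti-death transcripts made up 13.97% (12.8 to 15.2) of the 3113 UMIs of the 10 genes in germ cells and 25.5% (23.8 to 27.3) of the 2436 UMIs in somatic cells. By stage the share was highest for progenitor-like cells at 18.7% (15.7 to 21.9), followed by SSC-like cells at 14.4% (12.6 to 16.4) and differentiating-like cells at 10.7% (8.99 to 12.7). The somatic classes ranged from 21.7% in Sertoli-like to 36.5% in peritubular myoid-like cells. Every germ stage had a lower share than every somatic class, although the intervals of progenitor-like and Sertoli-like cells overlapped, and this order did not hold without Bax.

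The difference in this share depended on Bax, which held 65.8% of the UMIs of the 10 genes in germ cells and 42.3% in somatic cells. Without Bax, anti-death transcripts made up 40.8% (37.9 to 43.9) in germ cells and 44.2% (41.6 to 46.9) in somatic cells, intervals that overlapped. By class, progenitor-like cells then had 51.9% (45.3 to 58.5), a higher value than 4 of the 5 somatic classes, among them stromal-like cells at 37.3% (32.7 to 42.2) and, with an overlapping interval, Sertoli-like cells at 43.5% (39.3 to 47.8). Peritubular myoid-like cells stayed highest at 58.9% (50.9 to 66.5). BH3-only transcripts made up 20.1% of the UMIs in germ cells and 24.3% in somatic cells. All these shares cover the 10 genes only and depend on that choice. Bok, an effector relative outside the 10 genes, had 84 UMIs in germ cells and 1456 in somatic cells. In somatic cells that was more than the 1030 UMIs of Bax. Counting Bok with the effectors would narrow the gap in anti-death share, and shares with it were not computed. Transcript shares say nothing of protein amounts, which for these genes are also set after translation.

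**Figure D3:**
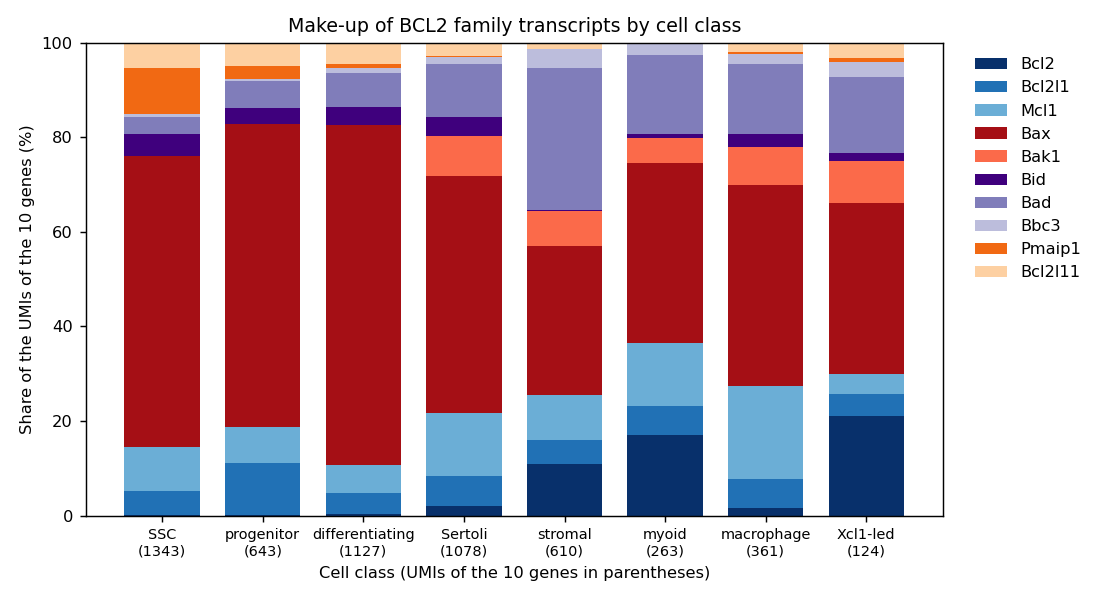
Share of each gene in the summed UMIs of the 10 BCL2 family genes (vertical axis, percent) for the 8 cell classes, with the number of UMIs below each bar. Anti-death genes are in blue at the base and Bax in dark red, and the anti-death share is 10.7% in differentiating-like cells and 36.5% in peritubular myoid-like cells.

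The wider cell death pathway was read through 5 gene lists in germ against somatic cells, in which 24.9% of all genes were higher and 27.8% lower. Of the 9 other BCL2 family genes with at least 30 UMIs, 1 was higher and 3 lower in germ cells, with a median log2 ratio of -0.00 against 0.05 for all genes. Bik, a BH3-only gene, was the higher gene at 55.9 CPM against 4.85 CPM, a log2 ratio of 3.53 (2.95 to 4.16). The lower genes were Bok, an effector relative, at 15.2 CPM against 272 CPM, the anti-death gene Bcl2l2 with a log2 ratio of -2.87 (-3.54 to -2.26), and Bcl2a1b, with 1 UMI against 40. Bcl2a1b has near-identical copies, so its count is uncertain.

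The death receptor list held receptors and also genes that act with them, such as Fadd, Tradd, Ripk1, Casp8 and Cflar. Of its 8 genes with at least 30 UMIs, 6 were at least 2-fold lower in germ cells, where 27.8% of all genes were. In the same list 1 was higher and 1, Fadd, was neither. Of the receptors themselves, Fas and Tnfrsf1a were lower and Tnfrsf10b higher. The median log2 ratio was -2.44, against 0.05 for all genes, with no test. Casp8, the initiator caspase that cleaves BID, was at 1.98 CPM against 33.0 CPM, and Fas at 0.361 CPM against 5.41 CPM. Tnfrsf1a, the TNF receptor, was at 8.30 CPM against 78.7 CPM. Tnfrsf10b, a TRAIL receptor, was the gene that was higher, at 8.84 CPM against 2.80 CPM. Summed over all germ cells, Bid had 127 UMIs and Casp8 11 UMIs, and their occurrence within the same cells was not tested.

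Downstream of the mitochondria, 4 of 12 apoptosome and caspase genes were higher and 5 lower in germ cells, near the 24.9% and 27.8% of all genes, with a median log2 ratio of 0.29. Endog, a mitochondrial nuclease, had a log2 ratio of 1.85 (1.50 to 2.21) and Diablo, which releases caspases from inhibition, 1.11 (0.95 to 1.28). Vdac1, a channel of the outer membrane, had a log2 ratio of -3.10 (-3.41 to -2.80). Of the 5 inhibitor of apoptosis genes, 0 were higher and 3 lower, with a median log2 ratio of -1.11, among them Xiap at 24.4 CPM against 52.6 CPM, a gene picked after its value was seen, as were Bcl2l2 and Ddit3.

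Of 10 upstream regulators, 2 were higher and 1 lower in germ cells, no more than among all genes, with a median log2 ratio of 0.43. Foxo1, a transcription factor of undifferentiated spermatogonia, had 108 CPM against 22.0 CPM, and Mdm2, the ubiquitin ligase that limits p53, 33.7 CPM against 14.2 CPM. Ddit3, a stress-induced factor, was the lower gene. Between SSC-like and differentiating-like cells, Cdkn1a, a p53 target and cell cycle inhibitor, was higher at 33.4 CPM against 11.2 CPM with a log2 ratio of 1.58 (0.85 to 2.38), and Foxo3 had a log2 ratio of 1.22 (0.73 to 1.73). In that comparison Bik was also higher in SSC-like cells, at 62.8 CPM against 28.2 CPM. Tnfrsf1a was higher too, at 12.6 CPM against 2.94 CPM. Bnip3, a mitophagy gene, was lower at 38.7 CPM against 143 CPM. Bok, at 10.2 CPM against 29.4 CPM, and Htra2, at 10.2 CPM against 28.8 CPM, were also lower. By list, 2 of 10 upstream regulators, 1 of 6 other BCL2 family genes and 1 of 4 death receptor genes were higher. Lower were 2 of 6 other BCL2 family genes and 1 of 12 apoptosome and caspase genes. Of all 8790 genes, 7.79% were higher and 6.73% lower. The p53 target Bbc3 was at 4.08 CPM against 7.06 CPM, with overlapping intervals. Against progenitor-like cells, Cdkn1a was higher in SSC-like cells, at 33.4 CPM against 2.16 CPM. Birc5, an inhibitor of apoptosis gene, was higher at 115 CPM against 44.6 CPM, and 0 genes of the 5 lists were lower. These were 1 of 10 upstream regulators and 1 of 4 inhibitor of apoptosis genes. Of all 8527 genes, 5.28% were higher and 2.23% lower in SSC-like cells.

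**Figure D4:**
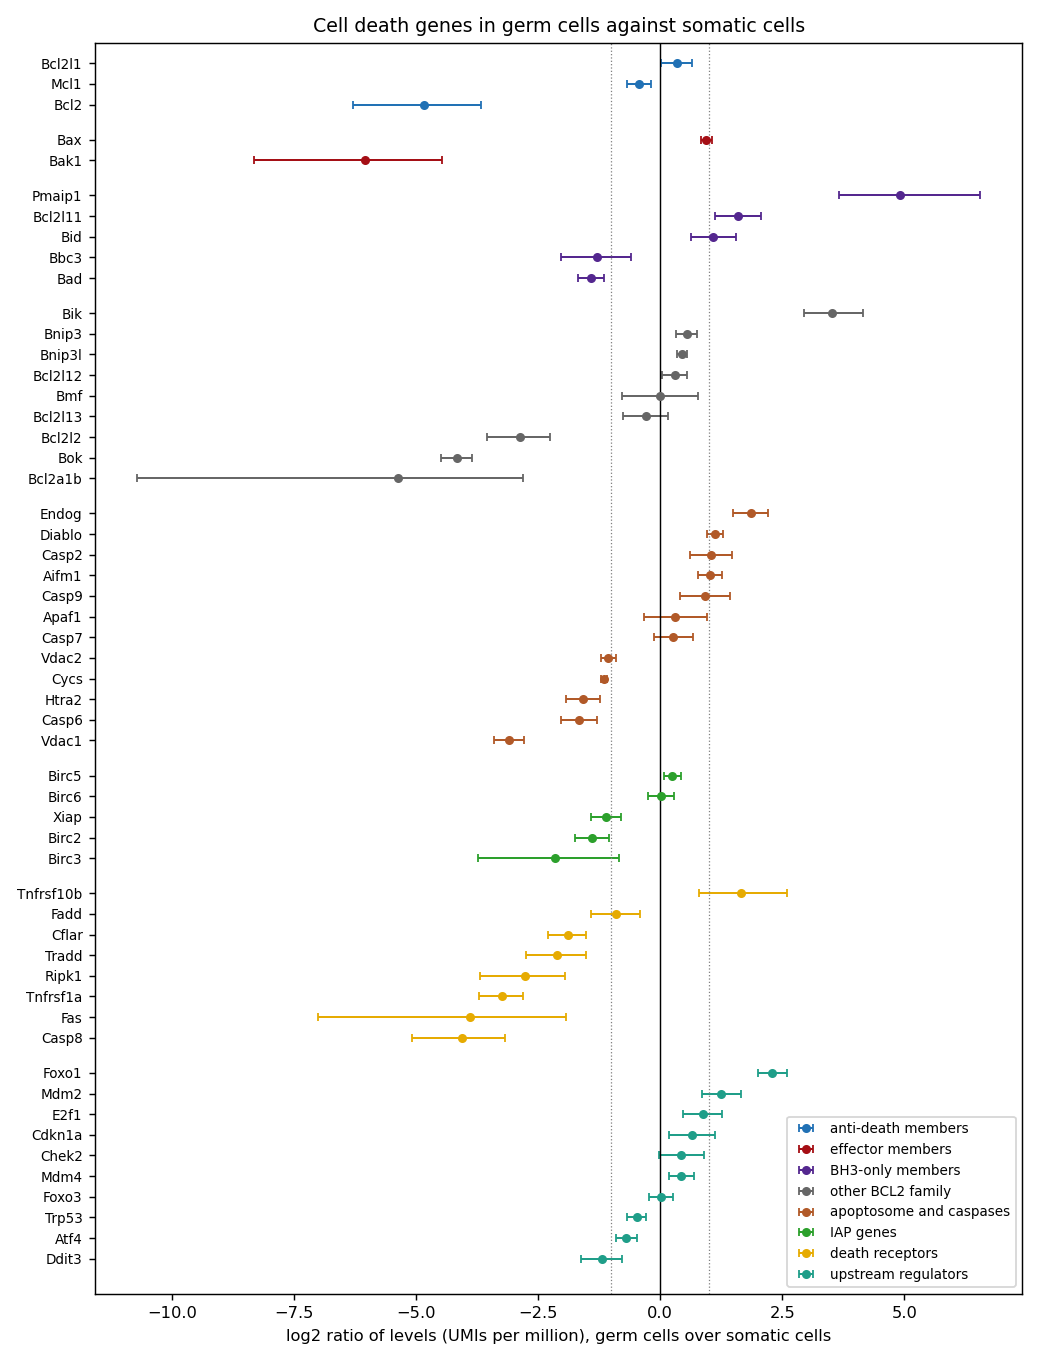
Log2 ratio of levels in germ over somatic cells (horizontal axis) for the BCL2 family genes and the 5 wider lists, limited to genes with at least 30 UMIs. Points are ratios, bars exact 95% intervals for counting error and dotted lines 2-fold, and Pmaip1 at 4.91 and Bak1 at -6.04 mark the extremes of the 10 members.

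For the 5 members with at least 200 UMIs, the genes with the most similar pattern were taken by Pearson correlation of log2(CPM + 1) over the 7 named classes, among 6529 genes. Bax was most like Taf10 (0.989), Eif2s1 (0.984) and Tbcb (0.984), and 225 genes had a correlation over 0.9 with it. Bcl2l11 was most like Prep (0.990), Cab39l (0.990) and Zc3h18 (0.987). Bad was most like Akt1 (0.980), Khk (0.960) and Etfb (0.959). Mcl1 was most like Zfp36l2 (0.974), Slc40a1 (0.969) and Twf1 (0.961), and Bcl2l1 most like Cln3 (0.957), Ap3b1 (0.933) and Setd3 (0.919). These values describe 7 points from the same library and carry no test.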

How the data were processed

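The deposited matrix held whole-number UMI counts per gene and cell, made by the authors with Cell Ranger 2.1.0 on mm10 per the labels, which also name Seurat. No columns of author comparisons were present. From these counts, barcodes with under 500 genes (10), at or over 10% mitochondrial UMIs (36), called as doublets by scrublet in scanpy 1.11.5 (4), or with at least 5% hemoglobin UMIs (1 more) were left out. The 919 cells kept had 2655 to 44915 UMIs. Seurat 5.3.0 clustered all cells, then germ cells (mean.var.plot, 14 principal components, resolution 0.5), with the 10 genes kept out of the variable genes. Of these, Bcl2 in the first step and Pmaip1 in the next would otherwise have entered. Clusters were named "-like" from fixed marker lists, of which Trbc2 was not measured. The cluster scoring highest for T cell markers was left without a name, a decision made after its cells had been seen, since simulated cells and its mixed markers showed that name to be unstable.

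UMIs were summed per class and scaled to CPM. Intervals were exact (Poisson for levels, conditional binomial for ratios, Clopper-Pearson for shares; SciPy 1.17.1). Ratios were called at 2-fold with at least 30 UMIs over both classes, and a count of 0 was bounded by 3 counts. Shares of cells were repeated with cells thinned to 5000 UMIs, leaving out cells below that depth. Ratio and clustering steps were tested on simulated data. Simulated stromal cells drawn from the class mean clustered together but received no name, and received it when the cells with Leydig markers were simulated apart. All 10 members were named, and from the pathway lists at most 6 genes past 2-fold in each comparison and direction. The members and lists were chosen with earlier results of these data known. Besides 19 other settings listed beforehand, 3 were added after seeing the data. Positions are GENCODE M21 and promoters RefSeq, in which 9 of the 10 genes were matched. Protein sequences were not used here.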

Additional observations from a re-analysis of the deposited data

How the results depend on the processing

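No paired analysis was possible because the study deposited 1 pooled library here. Across the 22 alternatives, 87 of the values for the main comparisons stayed within their interval or within 1.5 times and 10 moved. Not all of the 87 bear on stability. Limits of 200 and of 1000 genes per cell gave the same classes as the main setting, so values there could not move. Anti-death transcripts in germ cells were 7.72% with cells under 5% mitochondrial UMIs, a setting that kept 67 germ cells and 54 Sertoli-like cells. They were 15.6% with germ cells taken by a UMI of Ddx4 or Dazl, 12.6% as a mean over cells and 11.8% with cells thinned to 5000 UMIs. In somatic cells they were 27.6% under 5% mitochondrial UMIs. Germ cells stayed below somatic cells in each of these. Leaving Bax out of the sum, an alternative chosen after seeing the data, gave 40.8% and 44.2%. Sertoli-like cells as the somatic side, also chosen after seeing the data, left 1 gene, Bak1, at least 2-fold lower in germ cells. The number of members 2-fold different between SSC-like and differentiating-like cells was 1 in the count split, where Bad had a log2 ratio of -0.73, and 0 in thinned cells, where Pmaip1 and Bad had fewer than 30 UMIs. Of 53 ratios, 12 changed sign under at least 1 setting, 9 of them with an interval that included 0. The other 3 ratios did so in 4 instances. Under 5% mitochondrial UMIs, Bcl2l1 in germ over somatic cells became -0.054 and Bcl2l11 in Sertoli-like over stromal-like cells -0.14 (log2). Bax in SSC-like over progenitor-like cells became -0.0246 with variable genes by vst and -0.076 at resolution 1.2. The cause was not tested. Under 5% mitochondrial UMIs and at resolution 0.3 no SSC-like class was found, and under 5% and with 20 principal components no Xcl1-led cluster. With vst that cluster held 13 cells, at 287 CPM of Bcl2. Leaving out cells with 3 or more Leydig markers moved none of these values. Pooled mice, 1 library and low UMI counts for Bbc3, and for Bcl2 and Bak1 in germ cells, limit the precision.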

Other observations

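The 36 barcodes at or over 10% mitochondrial UMIs belong in no comparison above and held 292052 UMIs. Bax, the pore-forming effector, was at 212 CPM (163 to 272) in them and Mcl1 at 95.9 CPM (63.7 to 139). Bcl2l11 and Bad each had 9 UMIs, or 30.8 CPM (14.1 to 58.5), and Pmaip1 had 5 UMIs, or 17.1 CPM (5.56 to 40.0). Bcl2 had 0 UMIs and Bak1 2 UMIs. Of these barcodes, 22 had a UMI of the germ cell markers Ddx4 or Dazl.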
